A study of Mus musculus with 4 samples.

Results

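*Ahr*, *Tiparp*, *Ahrr*, *Rora*, *Maf*, *Batf*, *Bhlhe40* and *Nfil3* encode the aryl hydrocarbon receptor (AHR), its feedback regulators and transcription factors of type 17 T cells. They were picked by name with earlier results of these data known. Each was read from the rows of the expression table that the platform annotation pairs with its symbol. All 8 had 1 probe set, named for that gene alone, among 19938 genes with a probe set of their own, and 7 of them were among the 14953 genes bright enough to be tested. Wild-type C57BL/6 mice, adults matched for sex and age per the study's methods, gave spleen and lymph nodes, from which CD8+ T cells described as naive were taken by magnetic negative selection. They were kept for 2 days in RPMI with 10% FCS, IL-2 and anti-IFN-g (an antibody that blocks interferon-γ), which made the cytotoxic T lymphocyte (CTL) cultures, or in the same medium with IL6 and TGF-b in addition, which made the Tc17 cultures, named for the IL-17 they secrete. The groups thus differed in a pair of cytokines given together, whose single effects cannot be told apart. The study's methods also list antibodies to CD3 and CD28 for priming mouse Tc17 cells, and describe no CTL culture. There were 2 arrays per group and 4 in all. The labels call the replicates biological without saying whether they came from separate animals or pools. A p-value here sets a difference against the spread between arrays of a group, taken in part from all genes. It covers these samples only. In the study the arrays served to define Tc17 and CTL gene sets, and the comparison asks which transcripts tell the cultures apart.

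AHR waits in the cytoplasm in a complex with HSP90 and co-chaperones, enters the nucleus when a ligand such as a tryptophan metabolite binds, pairs there with ARNT and binds DNA at the core GCGTG. Among the genes it switches on are its own brakes. *Ahrr* encodes a repressor that competes for ARNT, and *Tiparp* an ADP-ribosyltransferase that marks AHR for loss. Type 17 T cells are known for high AHR, which favours IL-22 and other effector genes. RORα, the product of *Rora*, is a nuclear receptor that binds the motif AGGTCA in genes such as those of the IL-17 cytokines. c-MAF and BATF are basic leucine zipper proteins needed for full type 17 differentiation, BHLHE40 (DEC1) represses *Il10* and clock genes through E-boxes, and NFIL3 (E4BP4) represses genes with D-box elements and restrains type 17 cells of the CD4+ lineage.

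Promoter sequence was set beside the expression values because *Ahrr* and *Tiparp* are known AHR target genes. RefSeq promoters (GRCm38.p6, the 250 bases before the transcription start) were at hand for 5 of the 8 genes, namely *Ahrr*, *Tiparp*, *Rora*, *Batf* and *Nfil3*. The next 3 are shown because they hold the AHR-ARNT core, and *Nfil3* because it holds a ROR motif, each printed 5′ to 3′ on the strand of the gene. Capitals mark the core GCGTG in *Ahrr*, its complement CACGC in *Tiparp* and *Rora*, and the ROR motif AGGTCA in *Nfil3*, where it reads TGACCT.
Ahrr, chr13:74292332-74292581, minus strand: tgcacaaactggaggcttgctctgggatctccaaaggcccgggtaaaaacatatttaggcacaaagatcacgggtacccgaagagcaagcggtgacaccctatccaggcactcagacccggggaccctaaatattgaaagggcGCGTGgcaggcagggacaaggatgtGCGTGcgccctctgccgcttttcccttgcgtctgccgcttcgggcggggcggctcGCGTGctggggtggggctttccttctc
Tiparp, chr3:65528197-65528446, plus strand: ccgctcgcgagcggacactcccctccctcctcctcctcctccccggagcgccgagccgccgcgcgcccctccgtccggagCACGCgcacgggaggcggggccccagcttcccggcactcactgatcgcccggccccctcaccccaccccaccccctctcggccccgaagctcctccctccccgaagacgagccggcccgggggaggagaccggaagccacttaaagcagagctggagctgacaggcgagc
Rora, chr9:68653536-68653785, plus strand: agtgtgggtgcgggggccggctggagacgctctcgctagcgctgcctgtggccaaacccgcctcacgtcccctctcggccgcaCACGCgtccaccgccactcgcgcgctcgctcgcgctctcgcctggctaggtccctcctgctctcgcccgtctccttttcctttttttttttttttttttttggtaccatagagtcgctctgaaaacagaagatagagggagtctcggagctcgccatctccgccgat
Nfil3, chr13:52981040-52981289, minus strand: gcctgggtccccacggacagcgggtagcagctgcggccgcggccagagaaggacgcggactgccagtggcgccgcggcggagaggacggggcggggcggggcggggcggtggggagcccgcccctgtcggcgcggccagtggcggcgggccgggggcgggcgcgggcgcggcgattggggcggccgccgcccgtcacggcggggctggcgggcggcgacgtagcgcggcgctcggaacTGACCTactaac

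The *Ahrr* promoter held 3 copies of GCGTG, which ended 103, 78 and 23 bases before the start. *Tiparp* and *Rora* held 1 copy each on the opposite strand, at 170 to 166 and 167 to 163 bases before it. Counted on both strands, GCGTG occurred in 28.2% of all 32851 promoters of the same length and in 3 of the 5 read here, and 2.77% of all promoters held 3 or more copies, as *Ahrr* did. These windows are rich in G and C, at 60.4% for *Ahrr*, 75.2% for *Tiparp* and 61.2% for *Rora* against a median of 52.4% over all promoters, and the part of base composition in these matches was not tested. The other motifs searched were the E-box CACGTG (6.02% of all promoters), the AP-1 site TGANTCA (6.75%), the D-box TTANGTAA (2.06%), the ROR motif AGGTCA (14.0%) and the MAF motif TGCTGA (16.1%), which can share its last bases with an AP-1 site. Of these only the AGGTCA of *Nfil3*, 12 to 7 bases before the start, was found in the 5 promoters, and that of *Batf* held none of the 6 motifs. A match is a run of letters, and no binding was measured.

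Of the 7 genes tested, 5 were higher in Tc17 cells (*Ahr*, *Maf*, *Rora*, *Tiparp* and *Batf*), 1 was lower (*Nfil3*) and 1 (*Bhlhe40*) did not pass the test. Over all 14953 genes tested with limma (two-sided, Benjamini-Hochberg adjusted p under 0.05), 15.7% passed, 8.22% as higher and 7.44% as lower in Tc17. Leaving out CTL replicate 1 took the number lower from 1113 to 650 and the number higher from 1229 to 888, and leaving out Tc17 replicate 2 took them to 587 and 834. The median difference of the 7 was 1.38 on the log2 scale and that of all genes was 0.02. The genes were chosen with earlier results of these data known, so setting them beside all genes is no test. In 6 of the 7 the arrays of the groups did not overlap, 5 with both Tc17 arrays above both CTL arrays and 1 with both below. Over all genes tested, 29.6% lay wholly above and 24.8% wholly below. An exact permutation test of 2 arrays against 2 cannot give a p under 0.333, so tests rest on limma, which borrows the spread of all genes. In whole cultures, fewer cells that carry a transcript and less of it per cell cannot be told apart. All values are deposited RMA values taken as log2 intensities, differences are Tc17 minus CTL and carry the fit's standard error, and a level is compared between arrays for 1 gene and never between genes.

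**Figure D1:**
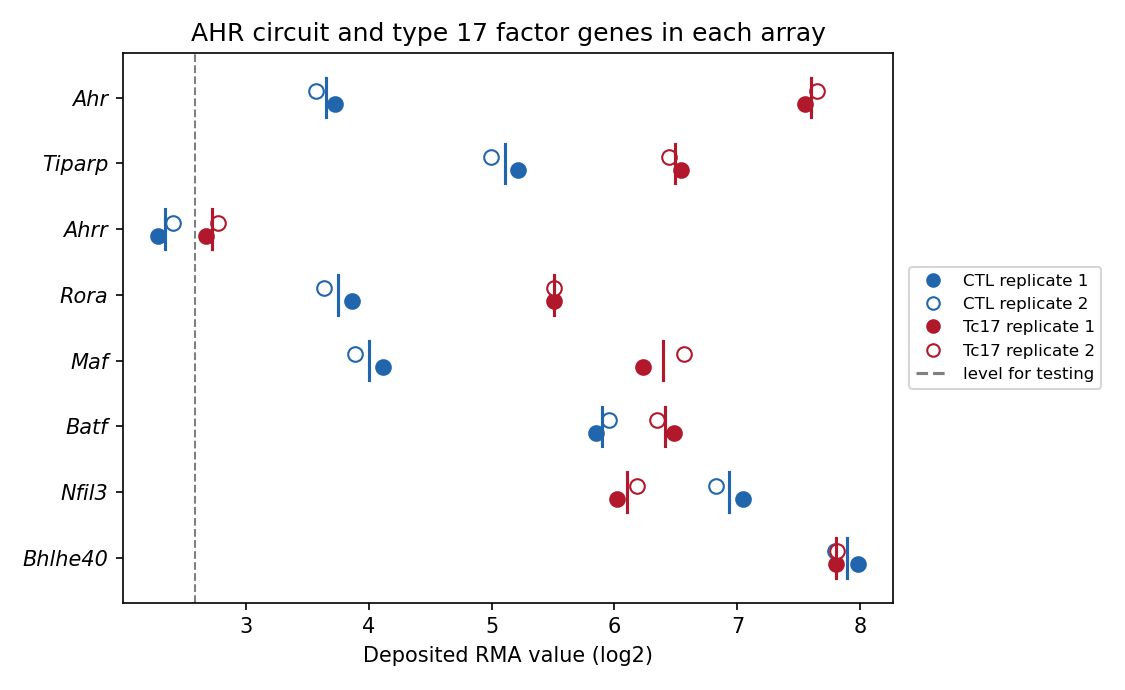
Deposited RMA value (log2, horizontal axis) of each gene in the 4 arrays, with CTL in blue, Tc17 in red, replicate 1 filled, replicate 2 open, vertical bars at the group means of 2 arrays and a dashed line at 2.59, the mean level under which genes were not tested. Both red points of *Ahr* lie from 7.55 to 7.65, far right of the blue points at 3.57 and 3.73, while those of *Nfil3* lie left of the blue and those of *Bhlhe40* lie beside the lower blue point.

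*Ahr* stood apart from the other genes of the circuit by the size of its difference. Its CTL arrays read 3.73 and 3.57, and its Tc17 arrays 7.55 and 7.65. Both CTL arrays lay a little above the array medians (3.18 to 3.20) and both Tc17 arrays far above them, with no overlap. The means were 3.65 ± 0.11 in CTL and 7.60 ± 0.07 in Tc17 (log2, mean ± SD, n = 2 each), a difference of 3.95 ± 0.13 (95% interval 3.66 to 4.24) or 15.4-fold, with a limma adjusted p of 3.16e-08. The 4 differences between a Tc17 and a CTL array ran from 3.82 to 4.08, while arrays of 1 group differed by 0.16 in CTL and 0.10 in Tc17. Among all genes tested, *Ahr* ranked 6 by size of increase.

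*Tiparp*, whose enzyme curbs AHR, rose too. It read 5.22 and 4.997 in the CTL arrays and 6.54 and 6.45 in the Tc17 arrays. The lower Tc17 array was thus well above the higher CTL array. From 5.11 ± 0.16 to 6.49 ± 0.07 the difference was 1.38 ± 0.13 (95% interval 1.09 to 1.68), or 2.61-fold (limma adjusted p = 5.49e-05), and its rank by increase was 119.

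*Ahrr*, the gene of the competing repressor, was dim in every array. It read 2.29 and 2.41 in CTL and 2.68 and 2.78 in Tc17, all under the median of every array (3.18 to 3.20). The Tc17 arrays were the higher ones and did not overlap the CTL arrays, with means of 2.35 ± 0.09 and 2.73 ± 0.07 and single differences from 0.27 to 0.49. Its mean over the 4 arrays, 2.54, lay 0.053 under the level set for testing, so the difference of 0.38 has no call. When genes of every brightness were tested, its adjusted p was 0.0771 in limma, and 0.219 when every row of the table was. The difference passed in neither test, so a change of *Ahrr* was not shown. Background signal compresses differences of dim probe sets, so any change there was may be understated. The table holds no detection calls that would tell a low level from none.

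**Figure D2:**
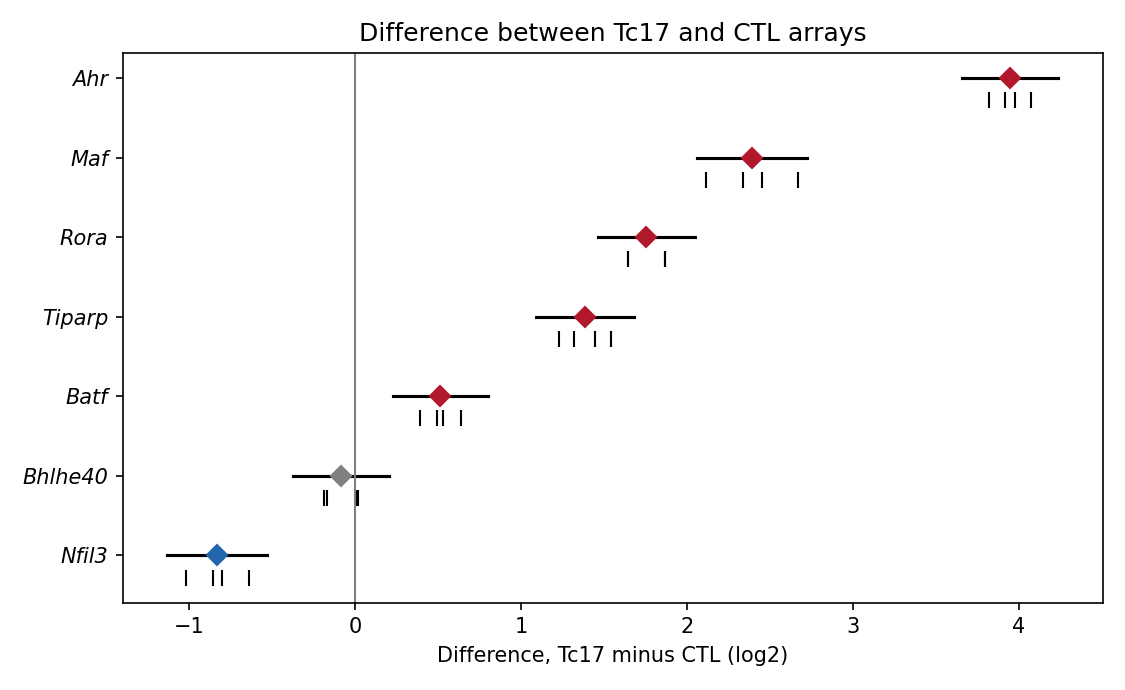
Difference between Tc17 and CTL (log2, horizontal axis) of the 7 genes tested, with diamonds at the limma estimate (red higher, blue lower, grey not past the threshold), horizontal lines for its 95% interval and ticks for the 4 differences between single arrays. The genes run from 3.95 for *Ahr* to -0.83 for *Nfil3*, and the interval of *Bhlhe40* alone crosses 0.

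*Rora* and *Maf* followed *Ahr* upward. *Rora* read 3.86 and 3.64 in CTL and 5.51 in both Tc17 arrays. The rise from 3.75 ± 0.16 to 5.51 ± 0.00011 came to 1.76 ± 0.13 (95% interval 1.46 to 2.05), or 3.38-fold, with a limma adjusted p of 9.78e-06. The Tc17 arrays of *Rora* were the closest pair among these genes, and limma did not take that pair alone as the spread but moderated it by that of all genes. *Maf* read 4.12 and 3.89 in CTL and 6.23 and 6.57 in Tc17. Its Tc17 arrays lay 0.34 apart, the widest gap within a group among these genes, yet the smallest difference between groups was 2.12. The mean rose from 4.005 ± 0.16 to 6.40 ± 0.24, by 2.39 ± 0.15 (95% interval 2.06 to 2.73) or 5.26-fold (limma adjusted p = 2.16e-06). Ranks by increase were 31 for *Maf* and 65 for *Rora*.

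*Batf*, whose protein joins JUN proteins and IRF4 or IRF8 at composite DNA sites, rose the least of the 5. The CTL arrays read 5.85 and 5.95, and the Tc17 arrays 6.48 and 6.34. All 4 differences between single arrays were above 0, from 0.39 to 0.64. The mean went from 5.90 ± 0.08 to 6.41 ± 0.10, by 0.51 ± 0.13 (95% interval 0.23 to 0.80) or 1.43-fold, with a limma adjusted p of 0.0208. This call did not outlast every change of the data. Without CTL replicate 1 the difference was 0.46 (adjusted p = 0.112 in limma) and without Tc17 replicate 1 it was 0.44 (adjusted p = 0.109). With every row of the table tested the adjusted p was 0.127. The rank of *Batf* by increase was 1015 of all genes tested.

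*Nfil3*, the D-box repressor, went the other way. It read 7.04 and 6.82 in CTL and 6.02 and 6.18 in Tc17. Both Tc17 arrays were below both CTL arrays, by 0.64 to 1.02. The mean fell from 6.93 ± 0.15 to 6.10 ± 0.11, a difference of -0.83 ± 0.14 (95% interval -1.13 to -0.53) or 1.78-fold lower in Tc17, with a limma adjusted p of 0.00188 and rank 328 by size of decrease. When every row of the table was tested, its adjusted p was 0.062. *Bhlhe40* read 7.98 and 7.80 in CTL and 7.80 and 7.81 in Tc17. Here the groups overlapped, with single differences from -0.19 to 0.02. The means of 7.89 ± 0.13 and 7.81 ± 0.01 differed by -0.08 ± 0.13, with a 95% interval from -0.37 to 0.20 and a limma adjusted p of 0.756. The interval leaves room for a change of either sign within those bounds.

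Set side by side, the 95% intervals of *Ahr*, *Maf* and *Rora* did not overlap each other, and neither did those of *Tiparp* and *Batf*, whereas those of *Rora* and *Tiparp* did. Differences between genes were not tested.

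**Figure D3:**
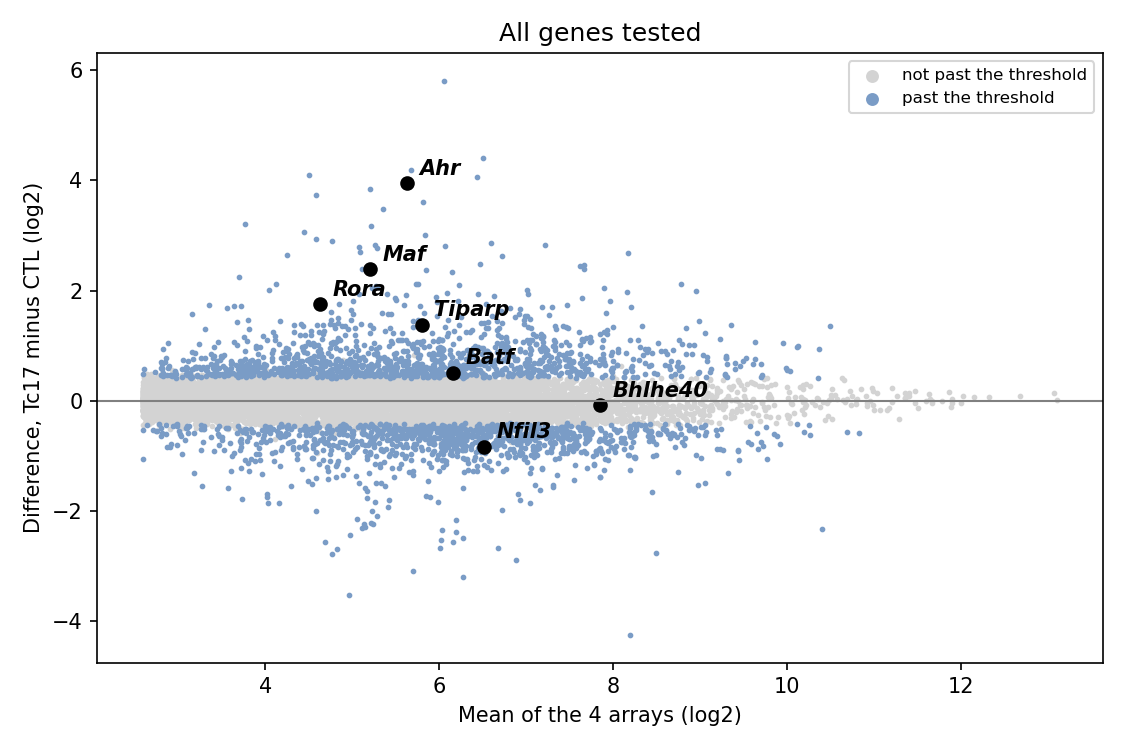
Difference between Tc17 and CTL (log2, vertical axis) against the mean of the 4 arrays (log2, horizontal axis) for the 14953 genes tested, with blue points past the limma threshold, grey points not past it and the 7 genes in black. *Ahr* lies near the top of the plot, *Bhlhe40* on the line of no difference among the grey points and *Batf* just inside the blue ones.

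Genes that share pathways with these 8 were read from 9 lists of 88 genes, of which 80 had a probe set of their own and 69 were tested. Over all lists 15 genes were higher and 7 lower in Tc17, beside 8.22% higher and 7.44% lower over all genes tested. Counts of each list below stand beside the same shares, and no set test was run. Among genes of the AHR complex and its partners, 0 of 4 tested rose in limma (0 also at an unadjusted p under 0.05) and 1 fell, and the median difference was -0.19. *Hsp90aa1*, the inducible HSP90 chaperone, fell by 0.57 ± 0.13 (adjusted p = 0.00984 in limma). Its call did not hold without CTL replicate 1 (-0.56, adjusted p = 0.0516) or Tc17 replicate 1 (-0.54, adjusted p = 0.0517). *Arnt*, the nuclear partner, read 6.03, 6.06, 6.36 and 6.07 (CTL and then Tc17, as in all such series below), a difference of 0.17 ± 0.14 with an adjusted p of 0.487. The p23 co-chaperone gene *Ptges3* differed by -0.41 ± 0.13 (adjusted p = 0.0572), and it passed as lower with the filter at the median (adjusted p = 0.0439), with an intensity trend and robust moderation (adjusted p = 0.00737) and with the mean of its probe sets (-0.51, adjusted p = 0.0164).

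Known AHR target genes were split. Of 11 listed, 6 were bright enough to be tested, and 3 of these were higher and 0 lower, with a median of 0.32. *Kit*, the stem cell factor receptor, read 3.82, 4.12, 5.48 and 5.98 and was higher by 1.76 ± 0.18 (limma adjusted p = 6.26e-05). *Gpr15*, a homing receptor for the colon, read 2.88, 2.67, 4.38 and 4.62 and was higher by 1.72 ± 0.14 (adjusted p = 1.83e-05). Neither gene had a Tc17 array near its CTL arrays. *Entpd1*, which encodes the ectonucleotidase CD39, read 2.93, 2.87, 3.52 and 3.49 and was higher by 0.61 ± 0.13 (adjusted p = 0.00674, and 0.0768 with every row of the table tested). In CTL *Gpr15* and *Entpd1* lay under the array medians, and neither was shown to be above background there. Their differences may be compressed and give no exact fold. The xenobiotic enzyme genes were dim or not called. *Cyp1a1*, the textbook target of AHR, read 2.35, 2.40, 2.70 and 2.48 and lay under the level for testing, as did *Cyp1a2*, *Nqo1* and *Serpinb2*. *Cyp1b1* (-0.19 ± 0.14, adjusted p = 0.45) and *Aldh3a1* (-0.25 ± 0.18, adjusted p = 0.434) did not pass the test, and *Nfe2l2*, the gene of NRF2, differed by 0.03 ± 0.13 (adjusted p = 0.911). Among the 10 targets with a RefSeq promoter, GCGTG was found before *Cyp1a1*, *Cyp1b1*, *Entpd1* and *Kit*. For *Entpd1* the promoter at chr19:40612116-40612365 held 1 copy and that at chr19:40659520-40659769 held 0. Genes with and without the core thus stood on both sides of the test.

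Genes that supply AHR with ligands showed 2 decreases and, in limma, 0 increases among 4 tested (0 also at an unadjusted p under 0.05), with a median of -0.44. *Slc7a5*, the large neutral amino acid transporter that carries tryptophan and kynurenine, read 9.86, 9.63, 8.27 and 8.14 and fell by 1.54 ± 0.14 (adjusted p = 3.00e-05 in limma). Its heavy chain partner *Slc3a2* read 9.87, 9.94, 9.01 and 8.96 and fell by 0.92 ± 0.13 (adjusted p = 5.64e-04). The tryptophan-degrading enzyme genes *Ido1*, *Tdo2*, *Kmo* and *Kynu* lay under the level for testing in these cultures. Transporters and receptor thus differed in opposite directions.

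**Figure D4:**
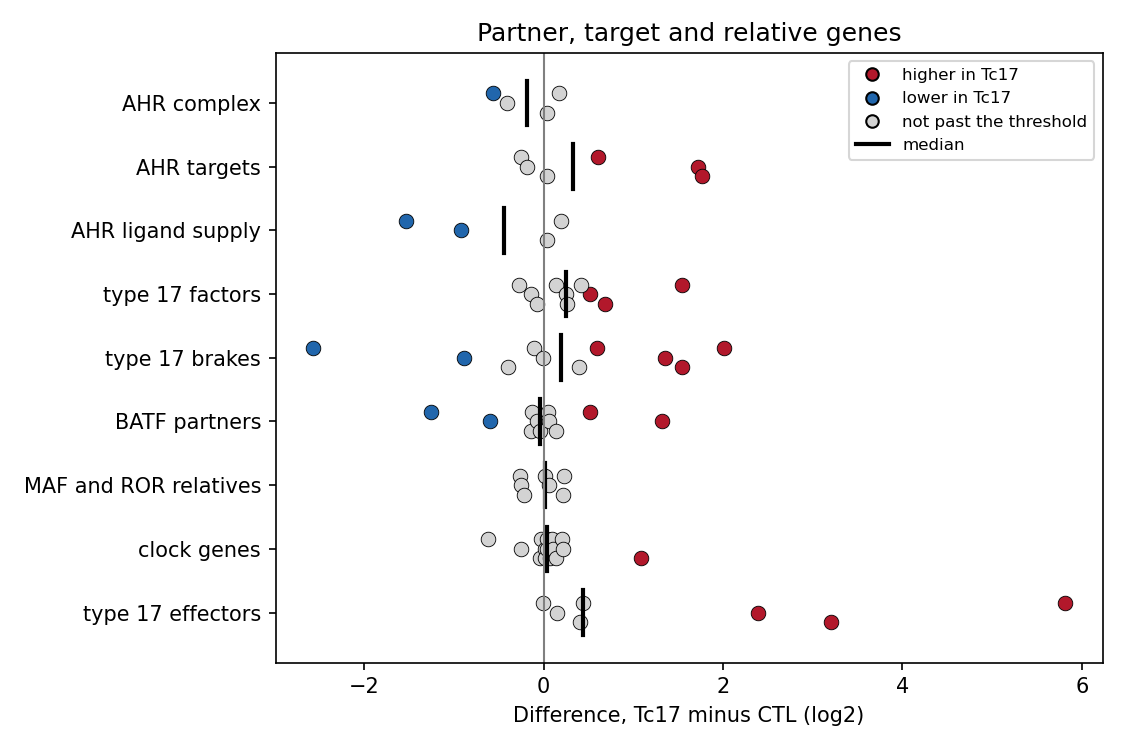
Difference between Tc17 and CTL (log2, horizontal axis) for each tested gene of the 9 pathway lists (vertical axis), in red where higher, blue where lower and grey where not past the limma threshold, with black bars at list medians. The medians run from -0.44 for AHR ligand supply to 0.44 for type 17 effectors, and every list mixes genes past the threshold with grey ones except MAF and ROR relatives, all 7 of which are grey.

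Other factors that favour the type 17 state numbered 10, of which 3 were higher and 0 lower (median 0.25). *Ikzf3*, which encodes Aiolos, rose by 1.54 ± 0.16 (limma adjusted p = 8.40e-05), *Stat3*, the factor downstream of IL-6, by 0.68 ± 0.14 (adjusted p = 0.00603, and 0.0938 with every row tested) and *Fosl2* by 0.52 ± 0.13 (adjusted p = 0.0205). *Fosl2* no longer passed without CTL replicate 1 (0.57, adjusted p = 0.0535), CTL replicate 2 (0.47, adjusted p = 0.104) or Tc17 replicate 1 (0.44, adjusted p = 0.114). *Irf4*, the partner of BATF, read 7.95, 7.82, 7.73 and 7.77 and differed by -0.14 ± 0.13 (adjusted p = 0.571), and the hypoxia factor gene *Hif1a* by 0.26 ± 0.13 (adjusted p = 0.216).

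Genes listed as brakes on type 17 cells did not share a direction. Of 10 tested, 4 rose and 2 fell, with a median of 0.19. *Bcl6*, the follicular helper repressor, rose by 2.01 ± 0.13 (adjusted p = 2.52e-06), *Foxo1*, a factor of quiescent T cells, by 1.55 ± 0.14 (adjusted p = 3.06e-05), *Ets1* by 1.36 ± 0.12 (adjusted p = 3.92e-05) and *Foxp3*, the factor of regulatory T cells that TGF-β induces, by 0.60 ± 0.13 (adjusted p = 0.0078, all from limma). In CTL *Bcl6* lay under the array medians and was not shown to be above background, so its difference may be compressed too. *Eomes*, a T-box factor of cytotoxic cells, read 6.26, 5.68, 3.07 and 3.73 and fell by 2.57 ± 0.22 (adjusted p = 2.70e-05). *Gfi1* fell by 0.89 ± 0.19 (adjusted p = 0.00912), which did not pass without CTL replicate 1 (-0.56, adjusted p = 0.0632) or Tc17 replicate 2 (-0.77). *Foxp3* likewise lost its call without Tc17 replicate 2 (0.55). *Tbx21*, the gene of T-BET, differed by -0.40 ± 0.13 (adjusted p = 0.0662).

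Most dimer partners and relatives of BATF did not pass the test. Of 11 tested, 2 rose and 2 fell, and the median was -0.04. *Jun* read 6.05, 5.77, 6.91 and 7.53 and rose by 1.32 ± 0.19 (limma adjusted p = 8.48e-04, and 0.0772 with every row tested), while *Junb* (-0.08 ± 0.15, adjusted p = 0.81) and *Jund* (0.14 ± 0.13, adjusted p = 0.569) did not pass. *Batf3*, a close relative, read 7.43, 6.49, 5.59 and 5.82 and fell by 1.25 ± 0.24 (adjusted p = 0.00444, and 0.146 with every row tested), against the rise of *Batf*. Its CTL arrays lay 0.93 apart, and the difference came to -0.79 when CTL replicate 1 was left out and to -1.72 when CTL replicate 2 was. *Irf8* fell by 0.60 ± 0.14 (adjusted p = 0.0151), and lost its call without any of CTL replicate 1 (-0.59), CTL replicate 2 (-0.61) and Tc17 replicate 1 (-0.43).

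With all arrays, no relative of *Maf* or *Rora* passed the test. Of 7 tested (small and large MAF genes and REV-ERB genes), 0 rose and 0 fell in limma (0 also at an unadjusted p under 0.05), the median was 0.02, and the smallest p belonged to *Mafk*, at -0.22 ± 0.13 with an adjusted p of 0.299. Clock genes, which NFIL3, BHLHE40 and RORα act on, gave 1 increase and, in limma, 0 decreases among 15 tested (median 0.04), with *Ciart* (-0.62 ± 0.24, adjusted p = 0.121) as the 1 decrease at an unadjusted p under 0.05. *Ciart* was called lower with the replicate block (adjusted p = 0.0279), with the mean of its probe sets (-0.70, adjusted p = 0.047) and without Tc17 replicate 2 (-1.07, adjusted p = 0.00314). The one that rose was *Arntl*, which encodes BMAL1 and carries ROR elements. It read 4.31, 4.25, 5.40 and 5.34, higher by 1.09 ± 0.13 (limma adjusted p = 1.87e-04). The REV-ERB genes *Nr1d1* (0.02 ± 0.15, adjusted p = 0.961) and *Nr1d2* (-0.25 ± 0.19, adjusted p = 0.467), whose products repress at the same elements, did not pass the test. The value of *Nr1d2* rests on 1 array, since its CTL arrays read 4.16 and 3.50, and without CTL replicate 2 it was called lower (-0.58, adjusted p = 0.0411).

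Type 17 effector genes had the highest list median, 0.44, with 3 of 7 tested higher and 0 lower. *Il17f* read 2.94, 3.35, 9.22 and 8.70, a difference of 5.81 ± 0.19 (limma adjusted p = 3.16e-08). *Il21*, which c-MAF helps to transcribe, read 2.13, 2.20, 5.36 and 5.39 and was higher by 3.21 ± 0.13 (adjusted p = 6.68e-08), and *Il17a* rose by 2.39 ± 0.15 (adjusted p = 2.17e-06). In CTL *Il21* lay under the level for testing and *Il17f* not far above it, and neither was shown to be above background there, so these differences may be compressed and give no exact fold. *Il10*, a target of c-MAF and of repression by BHLHE40, read 2.52, 2.38, 2.68 and 2.43, under the level for testing. *Il23r*, whose CTL mean of 2.45 lay under the level for testing, differed by 0.44 ± 0.16 (adjusted p = 0.097), and without CTL replicate 2 it was called higher (0.67, adjusted p = 0.0272). *Ccr6* differed by 0.15 ± 0.18 (adjusted p = 0.68).

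For each of the 7 genes, the pair of tested genes with the most similar course over the 4 arrays was found by the Euclidean distance between values centred on each gene's mean. *Ahr* had the chemokine receptor *Cxcr6* (distance 0.361) and *Cd7* (0.249), with differences of 3.60 and 3.84. *Tiparp* ran with *Pmepa1*, a TGF-β response gene (0.0484, difference 1.40), and *Herc3* (0.0807, 1.38). *Rora* ran with *Cyth4* (0.11, difference 1.66) and the chemokine gene *Xcl1* (0.137, 1.71), and *Maf* with the cathepsin gene *Ctsw* (0.208, difference 2.39) and the NK receptor gene *Klrc1* (0.288, 2.48). The nearest genes to *Batf* were *Slc9b2* and *Msl3* (0.0234 and 0.0235), to *Nfil3* *Atad3a* and *Kbtbd8* (0.0575 and 0.071), and to *Bhlhe40* *Kcnq3* and *Tpm1* (0.0198 and 0.0233). Distances over 4 arrays are small wherever the difference between groups is matched, and they carry no test.

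The arrays had medians of 3.18 to 3.20, and correlations across genes were 0.993 within each group and 0.967 to 0.973 between groups. Cell identity was that of CD8+ T cells in both groups. *Cd8a* and *Cd8b1* lay from 9.08 to 10.08 and *Cd4* from 2.83 to 3.28. Of 5 T cell markers measured, 3 were higher in Tc17, namely *Cd3d* (0.73 ± 0.12, limma adjusted p = 0.00221), *Cd3e* (0.86 ± 0.13, adjusted p = 0.00127) and *Cd3g* (1.00 ± 0.13, adjusted p = 3.32e-04), as was *Cd8a* (0.67 ± 0.14, adjusted p = 0.00838), and their part in the results for the 8 genes was not tested. Markers of macrophages and monocytes (2.26 to 3.03), dendritic cells (2.38 to 3.40), NK cells (1.92 to 2.59) and erythroid cells (*Alas2* alone, 2.65 to 2.85) were at or near the dim end in every array. B cell markers ran from 2.36 to 5.14, the top values being those of *Cd79b* (0.43 ± 0.14, adjusted p = 0.0619). Tests covered 3 of 5 listed B cell markers, 3 of 6 of macrophages and monocytes and 3 of 4 of dendritic cells. They also covered 1 of 4 erythroid markers and 0 of 3 NK cell markers. Of those tested, 0 passed the limma threshold in either direction, and 1, *Cd79b*, had an unadjusted p under 0.05. Whether the other markers, among them all those of NK cells, differed between the groups was not tested.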

How the data were processed

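RNA went through 2 rounds of cDNA synthesis and biotin labeling and was hybridised to Affymetrix whole-transcript arrays, with 1 array for each sample. The values are log2 intensities that the authors deposited after RMA, a method that corrects background, normalises arrays by quantiles and summarises probe sets. The version, settings, log base and genome build were not given in the sources used here, but a span from 1.18 to 13.70 is the range of log2 intensities. Quantile normalisation hides a shift shared by all transcripts.

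Of 35557 rows, the platform annotation paired 21789 with 1 symbol and 1621 with several, and 12147 were not in it. The gene IDs of 21698 rows matched RefSeq, which changed 0 symbols. Rows with 1 symbol were used, with the brightest probe set per gene. A gene was tested if its mean reached the 25th percentile of all genes, 2.59, which left out 4985. Groups came from the labels. The comparison of Tc17 and CTL used lmFit and eBayes of limma 3.58.1 in R 4.3.3, unpaired, with Benjamini-Hochberg adjustment over all genes tested and a limit of 0.05. To the 2 residual degrees of freedom the prior added 8.98. The script was tested on simulated data. The labels do not say what a replicate number shares, so numbers were not used as pairs. Arrays of the same number did not deviate together (correlation 0.02). The number of arrays limits the precision.

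The 8 genes and the pathway lists were chosen with earlier results of these data known. The text names the 8, up to 4 passing genes per list and direction (otherwise the gene with the smallest p) and the 2 genes nearest to each of the 7. Other list genes named were chosen after their values were seen. Alternatives were other filters, moderation, normalisations, probe set rules, rows, thresholds, a replicate block and each array left out in turn. Promoters were searched in Python 3.11.15 and pandas 2.3.3, without the 50 bases after each start, and matplotlib 3.10.9 drew the figures.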

Additional observations from a re-analysis of the deposited data

How the results depend on the processing

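Of 93 values of the 8 genes recomputed under the alternatives, 87 kept their direction and their side of the threshold, 5 lost the call and 1 reversed. The cause of these changes was not tested. Testing every row or leaving out an array also changed the moderation, since limma was fitted anew each time. With every row of the table tested, *Batf* (0.51, adjusted p = 0.127) and *Nfil3* (-0.83, adjusted p = 0.062) lost their calls in limma, which left 4 of the genes higher and 0 lower, with 506 genes called in all (324 higher and 182 lower) and 13 of the pathway genes in place of 22. Besides *Entpd1*, *Stat3*, *Jun* and *Batf3*, the pathway genes that lost their calls were *Hsp90aa1* (limma adjusted p = 0.0885), *Fosl2* (0.129), *Gfi1* (0.167), *Foxp3* (0.0823) and *Irf8* (0.142). Among the nearest genes, *Slc9b2*, *Msl3*, *Atad3a* and *Kbtbd8* lost theirs. Under the study's RNA-seq thresholds (an adjusted p of 0.01 and a difference of 0.75 on the log2 scale), *Batf* at 0.51 did not pass and 919 genes did (508 higher and 411 lower). *Batf* also lost its call without CTL replicate 1 (0.46) and without Tc17 replicate 1 (0.44), and *Bhlhe40*, never called, changed sign without CTL replicate 1 (0.0097, adjusted p = 0.984). With 1 array left out, which leaves 1 group with a lone array assumed to vary like the other group, all genes called ranged from 1421 (without Tc17 replicate 2) to 1924, with 1538 without CTL replicate 1, against 2342 with all arrays. Pathway genes called ranged from 18 to 22. The differences ranged from 3.87 to 4.03 for *Ahr*, 1.27 to 1.496 for *Tiparp*, 1.64 to 1.87 for *Rora*, 2.23 to 2.56 for *Maf*, 0.44 to 0.58 for *Batf*, -0.18 to 0.01 for *Bhlhe40* and -0.94 to -0.72 for *Nfil3*. Over all alternatives run, the highest adjusted p was 0.00456 for *Ahr*, 0.0252 for *Tiparp*, 0.015 for *Rora* and 0.0136 for *Maf*, so these 4 kept their calls. Adjusted p ranged from 0.015 to 0.127 for *Batf* and from 7.14e-04 to 0.062 for *Nfil3*. With the replicate number as a block, 5 of the genes were higher and 1 lower, 2322 genes were called in all and 23 of the pathway genes, the call of *Batf* had an adjusted p of 0.0301, and no call among the 8 genes changed. *Ahrr* and most xenobiotic enzyme genes lay among the dim probe sets, where a low level could not be told from none.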
